A study of Rattus norvegicus with 8 samples.

Results

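The members described here are the cadherin, protocadherin and integrin genes of a rat liver cell line, taken as every non-control probe of the array whose gene name begins with Cdh and a digit, Pcdh, Itga or Itgb. The rule used names only and found 84 of 35071 gene names on the array, read by 116 of 41012 probes: 20 cadherins, 37 protocadherins, 16 integrin alpha chains, 8 integrin beta chains and 3 proteins named for binding an integrin beta chain (Itgb1bp1, Itgb1bp2 and Itgb3bp). RNA came from BRL-3A, an established line derived from rat liver and labelled as liver tissue, harvested 48 h after lipofectamine transfection. In 4 samples the cells had received an siRNA aimed at lnc19959.2, a long noncoding RNA, and in the other 4 the transfection was labelled NC, an abbreviation the labels do not spell out; both groups are the same line with the same time point, and the labels name no sorting, selection or genetic change. Each sample was hybridised to its own single-colour Agilent Whole Rat Genome array, and a value below is the log2 signal of a probe relative to the 75th percentile of its array, so 0 marks that percentile and each unit is a 2-fold step.

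Cadherins are calcium-dependent adhesion proteins that hold neighbouring cells together and are tied to actin through catenins inside the cell. Protocadherins are a larger branch of the same superfamily: the clustered alpha, beta and gamma genes lie side by side and give cells a surface identity best known in neurons, while the non-clustered ones are scattered over the genome. Integrins are dimers of an alpha and a beta chain that hold cells to the matrix or to other cells, and the pairing of chains sets which ligand is bound. In liver, hepatocytes are joined mainly by Cdh1 (E-cadherin) and Cdh2 (N-cadherin), and contact the matrix largely through integrins that contain Itgb1.

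The NC arrays shared 1 slide and 1 scan and the siRNA arrays a different slide and scan, which cannot be told apart from the group. The 75th percentile of the signal was 245 to 261 on NC arrays and 289 to 322 on siRNA arrays, with 57.3% to 64.1% and 55.4% to 59.1% of spots well above background. Across probes, pairs of arrays from 1 group correlated at r = 0.986 to 0.993, and pairs from different groups at 0.946 to 0.962. The knockdown was not checked here, because none of the array's gene names is lnc19959.2. The labels do not state whether the arrays of a group came from separate cultures, so the p-values reflect array-to-array spread that may be technical. Precision is limited by the number of arrays, and since these are bulk samples, fewer cells of a type and less RNA per cell cannot be told apart.

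Each probe is 60 bases long and reads a small stretch of its transcript, so a sequence shows which stretch a value comes from. Those below are probes of genes described here, with at least 1 reading frame open through the probe. Capitals mark the longest run of bases shared with a probe of another member gene. For Itga7 and Itgb1 the sequence is that of a probe other than the brightest. Measured probes of Cdh17, Itga9 and Itgb6 also had an open frame and are not shown. Positions come from the design of the array on rn4, with the strand read from the order of start and end. The exon of each was not determined, and a position wider than 60 bases holds a gap that the probe skips.

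Cdh11, chr19:2380233-2380292 (+): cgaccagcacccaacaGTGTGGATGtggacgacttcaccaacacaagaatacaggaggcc
Cdh11, chr19:2365770-2365829 (+): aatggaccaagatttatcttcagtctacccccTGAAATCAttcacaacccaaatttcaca
Cdh11, chr19:2352706-2352765 (+): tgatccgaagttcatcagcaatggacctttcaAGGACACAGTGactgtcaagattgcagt
Cdh3, chr19:36390903-36392983 (+): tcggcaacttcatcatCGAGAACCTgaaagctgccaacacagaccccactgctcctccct
Pcdha2, chr18:29672366-29672425 (+): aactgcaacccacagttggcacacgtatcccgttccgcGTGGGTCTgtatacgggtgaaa
Pcdha4, chr18:29685323-29685382 (+): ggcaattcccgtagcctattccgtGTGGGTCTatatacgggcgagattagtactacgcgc
Pcdh7, chr14:57321171-57321230 (-): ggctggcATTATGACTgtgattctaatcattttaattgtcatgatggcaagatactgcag
Itga7, chr7:2264646-2264705 (+): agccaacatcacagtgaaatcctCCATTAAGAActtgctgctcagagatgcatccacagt
Itgb1, chr19:58611137-58611196 (-): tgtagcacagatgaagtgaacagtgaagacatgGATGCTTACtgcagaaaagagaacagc
Itgb7, chr7:140971597-140971780 (-): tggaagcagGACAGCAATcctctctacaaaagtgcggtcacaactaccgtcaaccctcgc

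Among the 52 measured probes these shared runs were 8 to 12 bases long, with a median of 9, and none of the 116 probes shared a run of 20 or more with a probe of another member gene. The closest pair among the sequences shown was that of Pcdha2 and Pcdha4, which matched at 32 of 60 bases.

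A probe counted as measured if it was well above background on at least 3 of the 4 arrays of a group, which held for 52 probes of 38 genes: 7 cadherins, 3 non-clustered and 11 clustered protocadherins, 10 integrin alpha chains, 5 beta chains, Itgb1bp1 and Itgb3bp. Of the 46 genes without a value, 30 were above background on no array and 16 on 1 or 2 arrays of a group. The first set held Cdh1, the E-cadherin that joins hepatocytes, with Cdh16, the kidney cadherin, Itgb2, the beta chain of leukocytes, and Itgb3, the beta chain of platelets. Cdh1, Itgb2 and Itgb3 were read by 1 probe each and Cdh16 by 2, so a transcript that these probes miss would not be seen. Itga4, Itgal and Itgam, alpha chains of leukocytes, were in the second, on 1 siRNA array, 2 NC arrays and 2 NC arrays. Among the 38 measured genes, 28 were above background on all 8 arrays, while 10 passed through 1 group only, 7 of them through NC, so their place among the measured genes rested on the group in which they were brighter; Itga2 and Pcdhga2 among them were not called.

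After siRNA, 16 of the 38 genes were higher and 13 lower at an adjusted p under 0.05 in limma, and 9 were not called. The fit covered all 24853 measured probes, and each gene was read at its brightest measured probe. Members were counted by the array's gene names, and other genes by RefSeq symbol where there was one. Pcdha2, Pcdha4 and Pcdhac2 thus count as 3 of the higher genes, although RefSeq lists them under 1 gene. Over all 11478 genes 64.6% were called, 35.3% higher and 29.3% lower, against 76.3% of the members, so a call by itself was the usual state of a gene in this comparison. The counts by family and by list below stand beside these shares. Of the 28 members above background on all arrays, 14 were higher, 7 lower and 7 not called, where 63.6% of all such genes were called. Array values of the groups did not overlap for 27 of the 38 genes, against 62.1% of all genes. The median difference, siRNA minus NC, was 0.063 over the members and 0.037 over all genes on the log2 scale. Scaling by the array median gave 19 higher and 8 lower, and scaling by spike-in RNA 25 and 6; these scalings moved the median of all genes up by 0.31 and 0.53, and every difference below is relative to the 75th percentile.

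A difference of at least 2-fold separated fewer genes. There were 4 higher (Cdh11, Cdh3, Pcdha2, Pcdha4) and 4 lower (Cdh17, Itga7, Itga9, Itgb6), against 3.65% and 7.31% of all genes. Pcdha2 and Pcdha4 are counted apart here, although RefSeq lists them under a single gene. Among members above background on all 8 arrays the same 4 were higher and Itga7 alone was lower, against 3.44% and 4.11% of all such genes; Cdh17, Itga9 and Itgb6 were measured through the NC arrays only. At the level of probes, 22 of the 52 were higher and 15 lower, against 29.4% and 32.2% of all probes (61.6% together). Past 2-fold there were 7 higher and 5 lower probes, against 2.96% and 7.23% of all probes (10.2% together, and 11.0% of all genes). The groups did not overlap at 33 member probes, against 58.2% of all probes. In 10 genes more than 1 probe was measured, and in 8 of these all probes were given the same call.

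**Figure D1:**
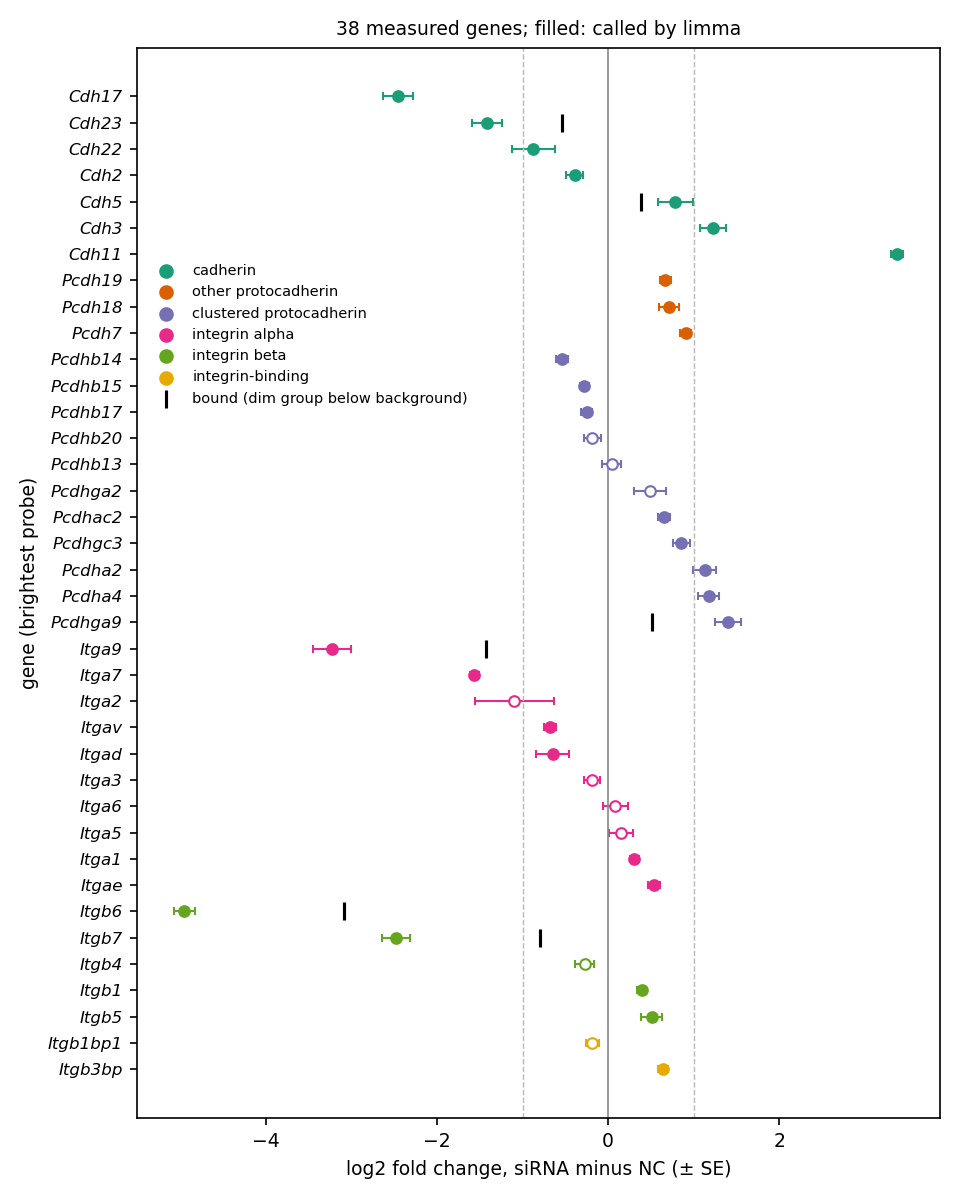
Log2 difference (siRNA minus NC, x axis) of the 38 measured genes at their brightest probe, with bars of ± 1 SE, grouped by family; filled points were called by limma, dashed lines mark 2-fold, and black ticks give the bound where one group was above background on no array. Cdh11 stands farthest to the right at 3.38, and Itgb6 farthest to the left with a bound of -3.08.

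Of the cadherins, Cdh11 rose the most and Cdh17 fell the most of the 7 measured, with 3 higher and 4 lower. Cdh11 (OB-cadherin), a cadherin of mesenchymal cells and bone-forming cells, was read by 4 probes on chromosome 19. At its brightest probe NC arrays 1 to 4 gave -3.57, -3.82, -3.68 and -3.70, and siRNA arrays 1 to 4 gave -0.35, -0.29, -0.42 and -0.20. All siRNA arrays were far above all NC arrays, and within each group the arrays differed little. The difference was 3.38 ± 0.07 (SE, n = 4 per group), a 10.4-fold rise (limma adjusted p = 1.24e-07). The probe at 2365770 gave a difference of 2.22 ± 0.28 (adjusted p = 0.000324 in limma). The probes at 2352706 and 2382456 were above background on no NC array and on all siRNA arrays, and their signals were at least 8.82-fold and at least 4.26-fold higher after siRNA. All 4 probes therefore gave the same direction, with sizes that differed.

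Cdh3 (P-cadherin), a cadherin of placenta and basal epithelia, was also higher. Its values were -2.23, -2.23, -2.43 and -1.74 on the NC arrays and -1.11, -0.90, -1.04 and -0.69 on the siRNA arrays. The groups did not overlap, although NC array 4 stood above the other NC arrays. The difference was 1.22 ± 0.16 (SE, n = 4 per group), or 2.34-fold (limma adjusted p = 0.000317). With normexp background correction in place of the scanner software's, the difference was 0.50 and the call was lost (adjusted p = 0.165 in limma), while 3.38 for Cdh11 became 1.39 and kept its call (adjusted p = 0.0258).

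Cdh17 (LI-cadherin), a cadherin of intestinal epithelium and of rat liver, fell. NC arrays gave -2.02, -1.87, -1.94 and -2.12, and siRNA arrays gave -4.59, -4.17, -4.10 and -4.91. Every siRNA array was below every NC array, and the probe stayed above background on 2 of the 4 siRNA arrays. The difference was -2.45 ± 0.18 (SE, n = 4 per group), a 5.48-fold decrease (limma adjusted p = 2.23e-05). Under normexp the difference was -1.15. A second Cdh17 probe was not measured and was above background on no array of either group.

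The remaining cadherins moved less. Cdh2 (N-cadherin) was 1.25, 1.24, 1.37 and 1.07 on NC arrays and 0.97, 0.81, 0.97 and 0.63 on siRNA arrays, without overlap. Its difference was -0.39 ± 0.10 (limma adjusted p = 0.00954), which the median scaling reduced to -0.08 and the spike-in scaling turned to 0.15. Cdh22, a cadherin first described in pituitary and brain, differed by -0.87 (adjusted p = 0.0168 in limma) with overlapping groups, and lost its call under median scaling, spike-in scaling and normexp (values from -0.65 to -0.34, adjusted p up to 0.221). Cdh23, known from the tip links of inner ear hair cells, was above background on 3 NC arrays and no siRNA array and was at least 1.45-fold lower (limma adjusted p = 0.000279), a call that normexp ended (0.164). Cdh5 (VE-cadherin), the junctional cadherin of endothelium, was above background on no NC array and on all siRNA arrays and was at least 1.31-fold higher (limma adjusted p = 0.0113), but turned to -0.32 under normexp. These genes were outside the rule for naming and were described after their values were seen.

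**Figure D2:**
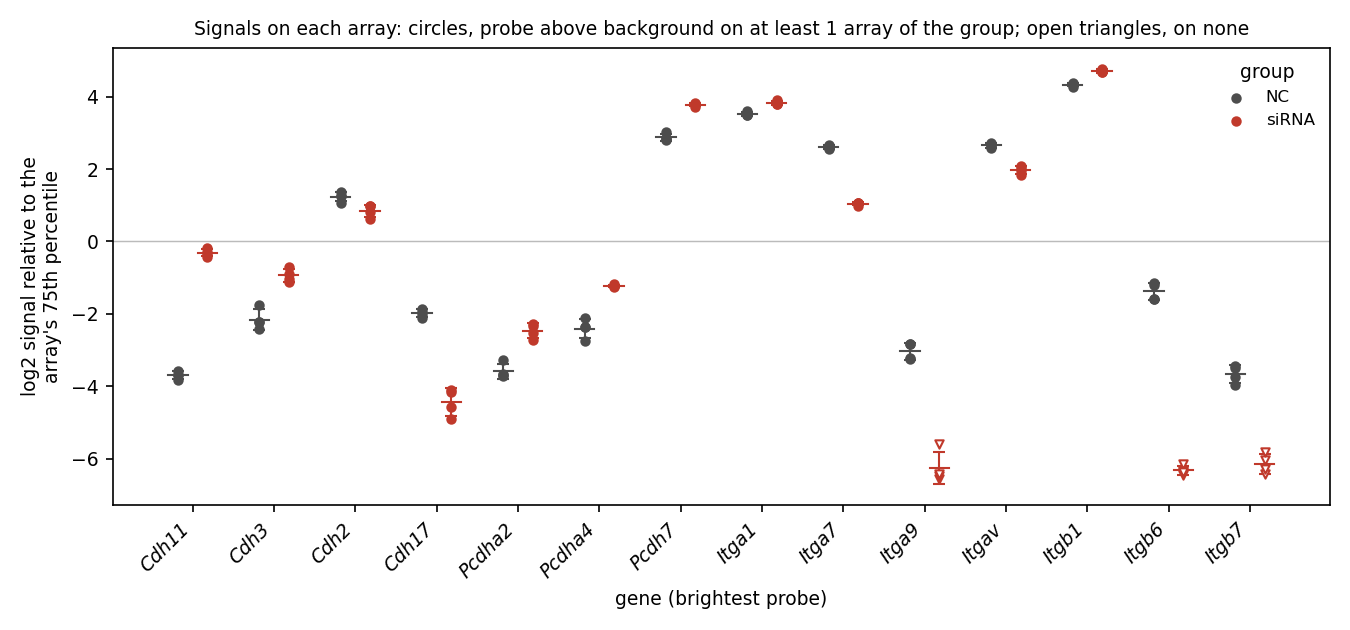
Log2 signal relative to the 75th percentile of the array (y axis) for 14 member genes at their brightest probe, with each array as a point and the mean ± SD of the 4 arrays of NC (grey) and siRNA (red); open triangles mark a group in which the probe was above background on no array. The siRNA points of Cdh11 lie between -0.42 and -0.20, and the NC points between -3.82 and -3.57.

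The 3 measured non-clustered protocadherins, Pcdh7, Pcdh18 and Pcdh19, were all higher, against 35.3% of all genes. Their groups did not overlap, which held for 62.1% of all genes. These 3 are delta-protocadherins, single-gene adhesion proteins of developing tissues. Pcdh7 gave 2.85, 2.80, 2.84 and 3.02 on NC arrays and 3.78, 3.72, 3.81 and 3.82 on siRNA arrays. Each siRNA array was above each NC array, by 0.91 ± 0.06 on average (SE, n = 4 per group; limma adjusted p = 1.47e-05). Pcdh18 rose by 0.71 ± 0.12 (adjusted p = 0.00129 in limma) and Pcdh19 by 0.67 ± 0.06 (adjusted p = 8.78e-05). The direction held under every scaling for the 3 genes, and under normexp Pcdh18 turned to -0.13.

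The clustered protocadherins lie within about 1 Mb of chromosome 18, from the Pcdha2 probe at 29672366 to the Pcdhgc3 probe that ends at 30716716 on rn4. In the alpha and gamma parts, each variable exon has its own promoter and is spliced to shared constant exons, whereas each beta gene is a coding exon of its own. Over all genes 35.3% were higher and 29.3% lower. Among 3 measured alpha genes 3 were higher, and of 3 gamma genes 2 were higher and 1 was not called. Of 5 measured beta genes none was higher, 3 were lower (Pcdhb14, Pcdhb15 and Pcdhb17) and 2 were not called, though under the median and spike-in scalings Pcdhb15 turned to 0.032 and 0.26 and Pcdhb17 to 0.062 and 0.29, and under spike-in scaling Pcdhb14 was at -0.0011 and not called (limma adjusted p = 0.991). Few genes of this region were measured at all: 5 of 17 beta and 3 of 5 gamma genes on the array. Whether the parts of the cluster differed from each other was not tested.

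In the alpha part, Pcdha2 was -3.28, -3.67, -3.73 and -3.69 on NC arrays and -2.28, -2.72, -2.33 and -2.52 on siRNA arrays. The groups did not overlap, and NC array 1 lay nearest to the siRNA arrays. The difference was 1.13 ± 0.13 (SE, n = 4 per group), 2.18-fold (limma adjusted p = 0.000231). Pcdha4 was -2.12, -2.37, -2.76 and -2.38 on NC arrays and -1.26, -1.24, -1.19 and -1.24 on siRNA arrays. Here too the groups were apart, and the siRNA arrays lay close together. The difference was 1.17 ± 0.12 (SE, n = 4 per group), 2.26-fold (limma adjusted p = 0.000122). Both Pcdhac2 probes were higher, by 0.65 ± 0.07 and 0.83 ± 0.07 (adjusted p = 0.000134 and 5.69e-05 in limma). The RefSeq table of GRCr8 lists the transcripts of Pcdha2, Pcdha4 and Pcdhac2 under 1 gene, so they are transcripts that share their constant exons and not independent genes. With normexp, Pcdha4 fell to 0.28 and lost its call (adjusted p = 0.448) and Pcdha2 turned to -0.11; when that correction was fitted without the 14 spots below their local background, they were 0.60 and 0.28 and both were called (adjusted p = 1.34e-05 and 0.00282).

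In the beta part, Pcdhb14 was lower at -0.54 ± 0.07 (limma adjusted p = 0.000361), Pcdhb15 at -0.28 ± 0.05 (0.00259) and Pcdhb17 at -0.25 ± 0.07 (0.012), each with groups apart; none of these calls held under normexp (adjusted p from 0.178 to 0.363). For Pcdhb20 the brighter probe was not called, at -0.18 (limma adjusted p = 0.158), and the other was lower, at -0.42 (0.0295). Neither Pcdhb13 probe was called; the brighter differed by 0.04, and the other was above background on 3 NC arrays and on no siRNA array. In the gamma part, Pcdhgc3 was higher at both probes, by 0.85 ± 0.10 and 0.44 ± 0.16 (adjusted p = 0.000241 and 0.0372 in limma). Pcdhga9 was above background on no NC array and on 3 siRNA arrays, and was at least 1.43-fold higher (limma adjusted p = 0.000141). Pcdhga2 was 0.49 ± 0.19 higher without passing the threshold (adjusted p = 0.0511). Under normexp, Pcdhgc3 turned to -0.099 and Pcdhga9 to -0.30.

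Some probes outside the naming rule are described in the array files as protocadherins, and they did not all follow the part of the cluster they are named for. A probe described as protocadherin beta 7 was higher by 0.38 (limma adjusted p = 0.0177), and one described as gamma A10 was lower (0.0132), with 3 of its NC arrays and none of its siRNA arrays above background. Probes described as beta 16 and gamma B8 were not called, at 0.41 (adjusted p = 0.210) and -0.13 (0.507).

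**Figure D3:**
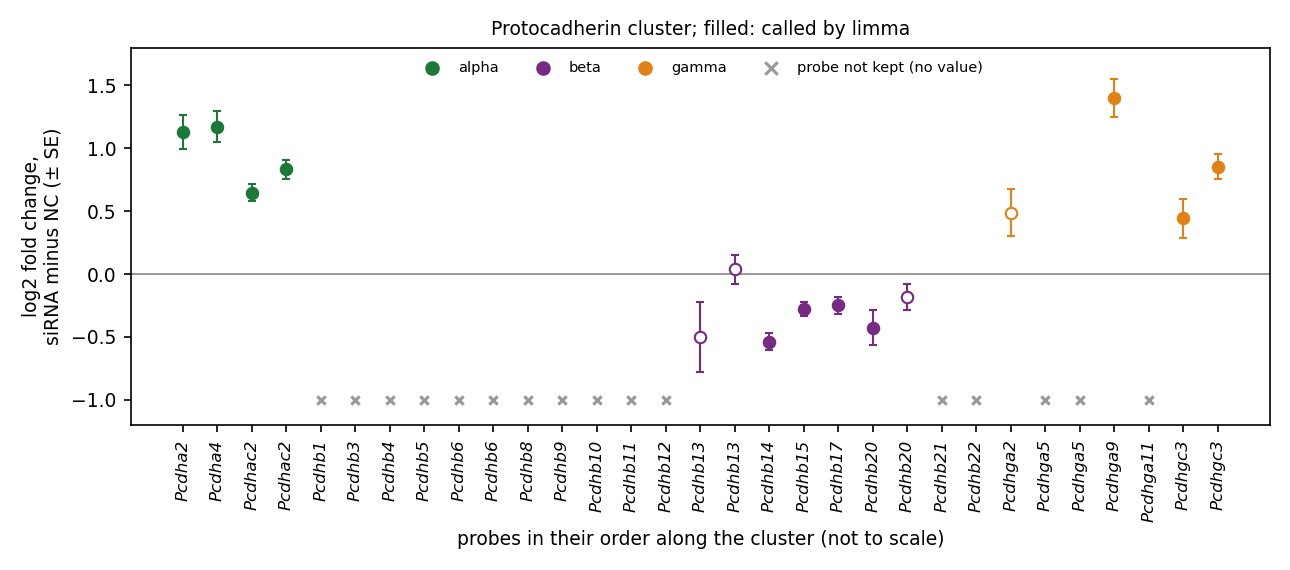
Log2 difference (siRNA minus NC, y axis, with ± 1 SE) of each clustered protocadherin probe in its order along the cluster on the x axis, which is not to scale; filled points were called by limma, and crosses at the bottom mark probes that were not measured and carry no value. The 4 alpha probes lie between 0.65 and 1.17, and the 7 measured beta probes between -0.54 and 0.04.

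Among the integrin alpha chains, 2 of 10 were higher, 4 lower and 4 not called, and the largest drops were in Itga7 and Itga9. Itga7 pairs with Itgb1 as a laminin receptor best known in muscle. It gave 2.55, 2.58, 2.66 and 2.65 on NC arrays and 1.07, 1.07, 1.06 and 0.98 on siRNA arrays. The groups were far apart beside a narrow spread within each. The difference was -1.56 ± 0.05 (SE, n = 4 per group), 2.95-fold lower (limma adjusted p = 4.36e-07). The other Itga7 probe, at 2264646 on chromosome 7, fell by 1.33 ± 0.27 on the log2 scale (limma adjusted p = 0.00341).

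Itga9 also pairs with Itgb1 and binds tenascin C and osteopontin among others. It gave -3.25, -2.82, -2.85 and -3.23 on NC arrays, all above background, and at this probe was above background on no siRNA array, with signals of -5.61, -6.57, -6.47 and -6.42. On the siRNA arrays only a bound can be given. By it Itga9 was at least 2.68-fold lower (limma adjusted p = 1.83e-05), but under normexp the difference was -1.01 (0.0478), and -0.63 when that correction left out the spots below their local background. A second Itga9 probe was not measured: it was above background on 2 NC arrays and on 1 siRNA array, and its signal on siRNA array 3, -1.91, was above all of its NC values.

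Itgav, the alpha chain that several beta chains share as a receptor for vitronectin, fibronectin and latent TGF-beta, was 2.65, 2.73, 2.66 and 2.58 on NC arrays and 2.02, 2.09, 1.83 and 1.95 on siRNA arrays. It was lower on every siRNA array than on any NC array, with a difference of -0.68 ± 0.07 (limma adjusted p = 9.62e-05), but under spike-in scaling the value was -0.14 and the call was lost (0.116). Itgad, which pairs with Itgb2 on leukocytes, was lower at -0.65 ± 0.20 (limma adjusted p = 0.0214), with overlapping groups and with 3 of the NC arrays and 1 of the siRNA arrays above background. That call was lost in 9 of 18 alternatives: on leaving out NC replicate 2, 3 or 4 or siRNA replicate 1 (adjusted p between 0.0503 and 0.0574) and under quantile, cyclic loess, median and spike-in scaling and normexp (adjusted p from 0.125 to 0.572).

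The alpha chains that rose were Itga1 and Itgae. Itga1, part of a collagen receptor with Itgb1, rose by 0.30 ± 0.05 (limma adjusted p = 0.0013), from 3.48 to 3.60 on NC arrays to 3.79 to 3.91 on siRNA arrays, a call that normexp ended (0.105). Itgae, which with Itgb7 binds E-cadherin on lymphocytes, rose by 0.54 ± 0.07 (limma adjusted p = 0.00043); the array design gives no position for its probe, and a further probe described as integrin alpha E1, outside the naming rule, was above background on no array. Both were small differences beside a spread that was smaller still.

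The laminin-binding Itga3 and Itga6 and the fibronectin-binding Itga5 were not called. Itga3 gave 2.15, 2.11, 1.86 and 2.28 on NC arrays and 1.82, 1.89, 1.88 and 2.05 on siRNA arrays, a difference of -0.19 ± 0.10 (limma adjusted p = 0.116). Itga5 gave -0.07, 0.11, 0.30 and -0.23 on NC arrays and 0.31, 0.06, 0.37 and -0.05 on siRNA arrays, a difference of 0.15 ± 0.14 (0.378). The groups overlapped in both genes. None of the 3 probes of Itga6 and of the 3 of Itga5 was called, with differences from -0.02 to 0.22 and from -0.23 to 0.15. The Itga6 probe at 54274656 on chromosome 3 is listed in the design on the opposite strand to the others. Itga2, the other collagen-binding chain, was -1.10 ± 0.46 (limma adjusted p = 0.0703), with 3 of its NC arrays and 1 of its siRNA arrays above background.

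Of the 5 measured beta chains, 2 were higher, 2 lower and 1 not called. Itgb6, an epithelial chain that pairs with Itgav alone and releases active TGF-beta, had the largest drop of the members, by its bound. It gave -1.58, -1.16, -1.19 and -1.58 on NC arrays, each above background, and -6.35, -6.16, -6.45 and -6.36 on siRNA arrays, none of them above background. The siRNA arrays thus hold only an upper limit of its signal. With the scanner software's background subtraction, Itgb6 was at least 8.48-fold lower (limma adjusted p = 1.76e-07). It stayed called under the 18 alternatives that measured it, but under normexp the difference was -1.61, smaller than that bound.

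Itgb7, the chain that Itga4 and Itgae share on lymphocytes, was above background on 3 NC arrays and no siRNA array and was at least 1.74-fold lower (limma adjusted p = 1.5e-05); with normexp the call was lost (0.0975). Itgb1, the shared partner of many alpha chains, rose slightly at both of its probes. Its brightest probe gave 4.37, 4.33, 4.26 and 4.35 on NC arrays and 4.74, 4.68, 4.78 and 4.67 on siRNA arrays, and the groups did not overlap. The difference was 0.39 ± 0.05 (SE, n = 4 per group; limma adjusted p = 0.000277), and that of the other probe 0.26 ± 0.06 (0.00459). Under normexp the brightest probe gave 0.62 without passing the threshold (0.0796). A further probe described as integrin beta-1, outside the naming rule, was higher by 0.37 (0.00425).

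For Itgb5, a partner of Itgav, the probes gave different calls. Its brightest probe rose by 0.51 ± 0.12 (limma adjusted p = 0.00708), while the other, listed in the design on the opposite strand, was not called at 0.19 ± 0.14 (0.263). Of 2 further probes described as integrin beta 5, 1 was not called at 0.24 (0.154) and 1 was lower at -0.33 (0.022). Itgb4, the partner of Itga6 in hemidesmosomes, gave 0.35, 0.30, 0.19 and 0.16 on NC arrays and 0.17, 0.18, -0.20 and -0.24 on siRNA arrays. The groups overlapped, and the difference of -0.27 ± 0.11 was not called (limma adjusted p = 0.0673).

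Among chains that pair with each other, Itgav (-0.68) and Itgb6 (given only as a bound) were lower together, whereas Itgb5 rose at its brightest probe. Itga7 and Itga9 (also given only as a bound) were lower while their partner Itgb1 was higher, and Itga1, another partner of Itgb1, was higher with it. Itgae was higher, at a probe without a position in the design, while its partner Itgb7, given only as a bound, was lower. Normexp ended the calls of Itga1, Itgav, Itgb1 and Itgb7.

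Of the integrin-binding proteins, Itgb3bp, which also acts at the kinetochore, rose by 0.64 ± 0.06 (limma adjusted p = 9.27e-05), with NC arrays from 2.42 to 2.66 and siRNA arrays from 3.12 to 3.26. Itgb1bp1 (ICAP-1), which binds the tail of Itgb1 and holds the integrin inactive, gave 2.27, 2.22, 2.23 and 2.04 on NC arrays and 2.12, 2.01, 2.02 and 1.86 on siRNA arrays. Its groups overlapped, and the difference of -0.19 ± 0.08 was not called (adjusted p = 0.0622).

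**Figure D4:**
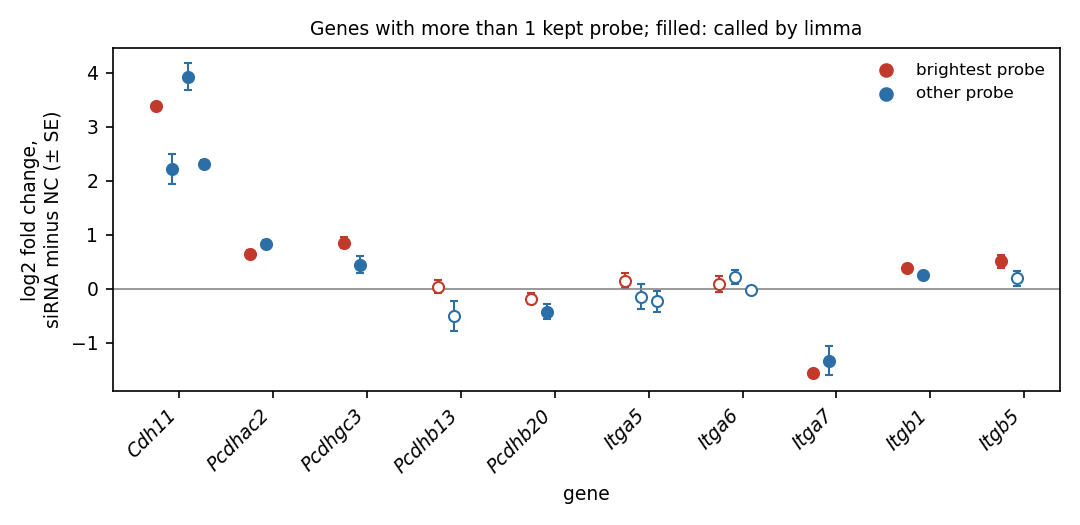
Log2 difference (siRNA minus NC, y axis, with ± 1 SE) of every measured probe of the 10 genes with more than 1, the brightest probe in red and the others in blue; filled points were called by limma. The 4 Cdh11 probes all lie above 2, and the 2 Itga7 probes lie at -1.56 and -1.33.

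Partners of the cadherins moved both ways. Among catenins and other junction plaque genes, 8 of 16 measured were higher, 5 lower and 3 not called. Over all genes 35.3% were higher and 29.3% lower. The junction proteins Pkp2 (plakophilin) and Nectin4 were lower, with differences of -0.59 ± 0.05 and -1.70 ± 0.10 (limma adjusted p = 5.33e-05 and 8.84e-06). Ctnnd1 (p120-catenin), which keeps cadherins at the surface, fell by 0.55 ± 0.09 (0.00136), and Ctnnal1 (alpha-catulin) rose by 0.77 ± 0.12 (0.000805). The partner and marker genes here and below are given under 75th-percentile scaling only. Spike-in scaling moved the median of all genes up by 0.53, close in size to the falls of Ctnnd1 and Pkp2. Ctnnb1 (beta-catenin) was higher by 0.31 ± 0.09 (0.0158), and Ctnna1 (alpha-catenin) was not called at -0.03 (0.723). Of the rest of the cadherin superfamily 3 of 8 measured were higher, 4 lower and 1 not called. Dchs1, the ligand of Fat4, rose by 0.89 ± 0.06 (1.67e-05), and Clstn1 (calsyntenin) by 0.79 ± 0.15 (0.00218). Cdhr1, a photoreceptor cadherin, was above background on all NC arrays and no siRNA array and was at least 26.9-fold lower (3.21e-07), and Cdhr5, of the intestinal brush border, fell by 1.71 ± 0.14 (4.37e-05).

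Of 8 measured transcription factors that repress or sustain cadherin genes, 2 were higher, 1 lower and 5 not called. Zeb1, a repressor of Cdh1, rose by 0.53 ± 0.05 and Tcf4 by 0.22 ± 0.05 on the log2 scale (limma adjusted p = 9.92e-05 and 0.00973). Grhl2, an activator of epithelial junction genes, was above background on 3 NC arrays and no siRNA array and was at least 1.92-fold lower (7.06e-06). Snai1, Twist1 and Zeb2 were among those not called. Cdh1 itself, read by 1 probe, was above background on no array.

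On the integrin side, 8 of 25 measured cytoplasmic partners were higher, 7 lower and 10 not called. Ptk2b (Pyk2), a focal adhesion kinase, rose by 1.33 ± 0.08 and Parva (parvin) by 0.67 ± 0.05 (limma adjusted p = 1.08e-05 and 1.89e-05). Fermt3, the kindlin of blood cells, fell by 2.26 ± 0.12 and Actn1 (alpha-actinin) fell by 1.37 ± 0.08 on the log2 scale (5.95e-06 and 7.24e-06). Tln1 (talin), which activates integrins, was not called at -0.11 (0.249). Of 21 measured ligands other than collagens, 7 were higher, 9 lower and 5 not called. Fbn1 (fibrillin) rose by 1.32 ± 0.09, Nid2 (nidogen) by 1.05 ± 0.08 and Lama5 (a laminin chain) by 0.67 ± 0.06 (1.57e-05, 2.2e-05 and 6.72e-05).

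Of 13 measured membrane partners of integrins, 9 were higher, 3 lower and 1 not called, against 35.3% and 29.3% of all genes; their median difference was 0.31, against 0.037 over all genes. The tetraspanins Cd81 and Cd82 rose by 1.10 ± 0.06 and 0.83 ± 0.06 (limma adjusted p = 7.69e-06 and 2.71e-05), and the syndecan Sdc1 by 0.52 ± 0.06 (0.000159). Plaur, the urokinase receptor, fell by 0.84 ± 0.11 on the log2 scale (0.000437). Reference genes leaned the same way, with 8 of 14 higher, 3 lower and a median difference of 0.22. The median was also 0.22 for the junction plaque genes. It was -0.15 for the ligands and -0.34 for the rest of the cadherin superfamily. No list was tested as a set.

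Cell type markers were read beside these genes, since several members mark particular cells. Of hepatocyte markers, Alb, Ttr, Tf, Serpina1, Tat and Pck1 were above background on no array. These defining markers of the labelled tissue were thus not detected. Of the 7 measured, 3 were higher, 3 lower and 1 not called. Each sum in this paragraph adds the linear level, relative to the 75th percentile, over every probe of a list's genes, measured or not. For hepatocyte markers the sum was 4.60 to 5.24 on NC arrays and 8.89 to 11.4 on siRNA arrays. Cyp2e1, a cytochrome P450, rose 30.7-fold (limma adjusted p = 9.64e-06). The transcription factors Foxa2 and Hnf4a rose by 0.63 ± 0.11 and 0.83 ± 0.22 on the log2 scale (limma adjusted p = 0.00196 and 0.0108). Hnf4a was above background on 1 NC array at this probe. Apoa1, an apolipoprotein, Krt18, a keratin, and G6pc1, of glucose release, were 21.8-fold, 9.17-fold and 2.19-fold lower (limma adjusted p from 2.61e-06 to 0.000213). The sum therefore did not follow each of its genes. Fibroblast and stellate cell markers summed to 348 to 377 on NC arrays and 421 to 452 on siRNA arrays. Of these markers 4 of 8 were higher, 1 lower and 3 not called. Among the higher ones, Col3a1 rose by 2.66 ± 0.07 and Col1a2 by 0.61 ± 0.05 (limma adjusted p = 2.58e-07 and 2.79e-05). Pdgfrb was lower at -0.50 ± 0.11 (limma adjusted p = 0.00396), and Col1a1, Vim and Des were not called. Of endothelial markers 3 of 5 were higher (Kdr 3.12-fold, Eng 1.86-fold, and Cdh5) and 2 lower (Tek, with a bound of 2.93-fold, and Vwf, with a bound of 8.18-fold), with Pecam1 above background on no array and sums of 2.31 to 3.03 and 4.38 to 5.96. Cholangiocyte and epithelial markers summed to 2.21 to 2.46 and 4.30 to 4.89, with 1 of 3 higher (Krt7, 3.37-fold) and 2 lower (Sox9, -1.01, and Spp1, -0.46) and with Epcam and Cdh1 above background on no array. Leukocyte markers summed to 6.98 to 7.97 and 5.90 to 6.93, with none of 3 higher, 2 lower (Cd68 and the member Itgb7) and 1 not called, and with Itgb2 and Adgre1 above background on no array. Among 14 reference genes 8 were higher, 3 lower and 3 not called. Spike-in scaling moved the median of all genes up by 0.53, which is more than the drops of Pdgfrb and Spp1. The part of these markers in the members' differences was not tested.

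**Figure D5:**
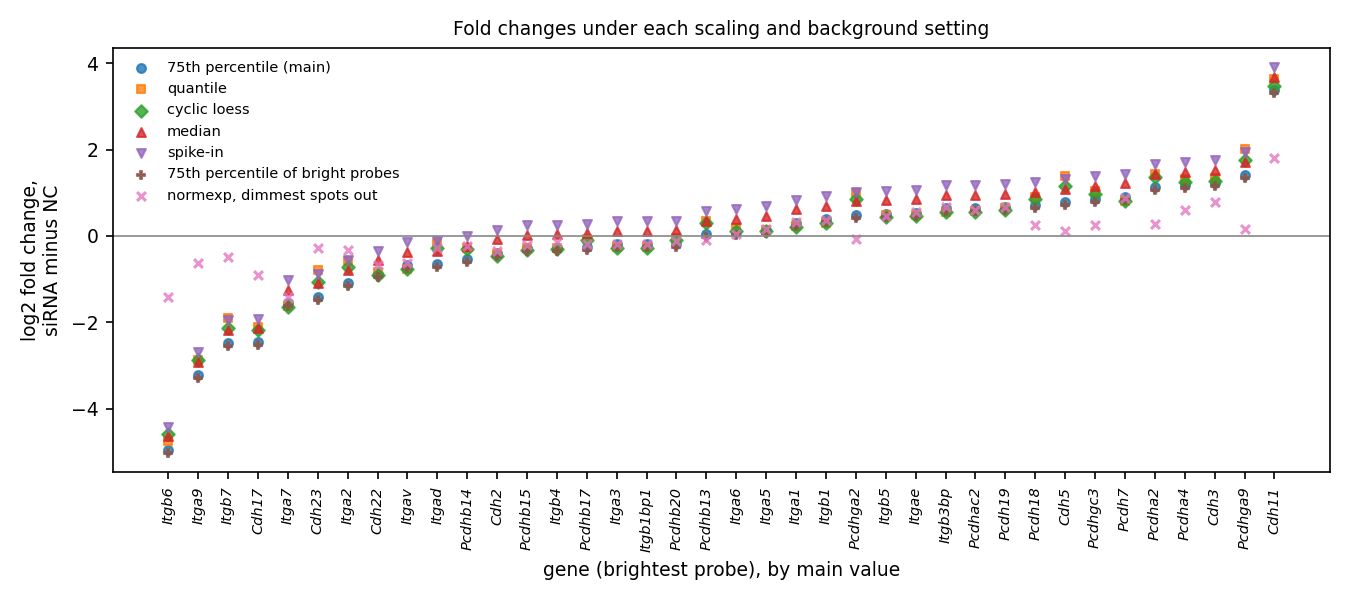
Log2 difference (siRNA minus NC, y axis) of the 38 measured genes under 6 scalings and under normexp fitted without the spots below their local background, ordered on the x axis by the value under 75th-percentile scaling. Spike-in scaling lies above that value for every gene, and the 5 lowest and the highest genes keep their sign under every setting drawn.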

How the data were processed

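Gene expression was measured on 8 one-colour Agilent arrays, 4 per group. The deposited spot intensity was made with Feature Extraction 12.0.3.1 per the file headers (12.0 in the submitters' processing notes). It is background-subtracted within the array, and the files mark which spots are above background or outliers and give positions on rn4. The authors' deposited series table of log2 values covers 86 probes, none of them a member, and was not used. Per the submitters' processing notes limma is among the tools, for a purpose they do not state. Control spots and 129 to 174 outlier spots per array were dropped; none was saturated. Log2 intensities were set relative to the array's 75th percentile, and replicate spots were averaged. Probes above background on at least 3 of 4 arrays of a group (24853) entered a two-sided limma fit (version 3.58.1 in R 4.3.3, lmFit with eBayes). P-values were adjusted over all of them by Benjamini-Hochberg, and calls were made at an adjusted p under 0.05. A gene was its brightest measured probe.

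Where a group was above background on no array, the fold is a lower bound: the other group's mean against the mean, per array, of the probe's own signal or the lowest signal of any probe above background, whichever was higher. Such a bound holds only with the scanner software's background subtraction. Genes described in full were members past the threshold and 2-fold by value or bound, and up to 4 brightest members not called. Of each list up to 4 called genes with the smallest adjusted p were named; others named were chosen after their values were seen. A gene that this rule names is not reported here. The members, lists and tests were chosen with earlier results of these data known. Alternatives were quantile, cyclic loess, median, spike-in and bright-probe 75th-percentile scaling, normexp on the mean signal (offset 50), other filters, leaving out each array and the mean of a gene's probes. A normexp fit that drops spots below their local background was added after seeing the data. The fit was tested on simulated data. RefSeq symbols are those of GRCr8, and member names are those of the files.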

Additional observations from a re-analysis of the deposited data

Results flagged for a closer look

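In 5 of 76 groups of 4 arrays tested (6.58%), 1 array of a member gene lay far from the others of its group beside the group's range by Dixon's test; chance gives about 1 in 20 groups. For Itga7, siRNA array 4 was at 0.98 beside 1.06 to 1.07 on the other siRNA arrays. For Pcdha2, NC array 1 was at -3.28, above the other NC arrays, and for Itgad, NC array 1 was at -4.20, below them. For Cdh5, siRNA array 1 was at -3.39 and the others between -4.24 and -4.16. For Itga9, siRNA array 1 was at -5.61, in a group above background on no array. Each value is a log2 signal relative to the 75th percentile of its array.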

How the results depend on the processing

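Against 16 genes higher and 13 lower (22 and 15 probes), spike-in scaling gave 25 and 6 genes (34 and 7 probes), median scaling 8 genes and 9 probes lower, normexp 7 and 4 genes (8 and 4 probes), no filter 21 genes and 25 probes lower, and a filter on all 8 arrays 7 genes and 8 probes lower. The median of member genes, 0.063, was 0.16 under quantile, 0.37 under median and 0.60 under spike-in scaling and 0.23 with all 8 arrays above background; it was -0.0060 with the 75th percentile of bright probes, -0.16 under normexp, -0.085 under normexp fitted without the 14 spots below their local background, -0.089 without a filter and -0.13 over all probes of a gene. Other counts stayed within 1.5 times. Leaving out each array gave 16 to 17 genes higher and 12 to 15 lower, 21 to 23 probes higher and 13 to 17 lower, and medians of 0.0065 (without NC replicate 2) to 0.070. Under all 5 scalings 30 of 38 genes kept their direction. Under median scaling the values that turned were Itgb1bp1 0.12, Itga3 0.12, Pcdhb15 0.032, Itgb4 0.037, Pcdhb20 0.13 and Pcdhb17 0.062. Under spike-in scaling they were Itgb1bp1 0.35, Itga3 0.34, Cdh2 0.15, Pcdhb15 0.26, Itgb4 0.26, Pcdhb20 0.35 and Pcdhb17 0.29, and with bright probes Pcdhb13 at -0.029. Under normexp they were Itgb1bp1 0.015, Itga3 0.0012, Itga6 -0.043, Pcdhgc3 -0.099, Pcdh18 -0.13, Pcdha2 -0.11, Pcdhb13 -0.48, Pcdhga2 -0.53, Cdh5 -0.32 and Pcdhga9 -0.30, and without those spots Pcdhb13 -0.088 and Pcdhga2 -0.082. Leaving out 1 array gave Pcdhb13 values from -0.035 to 0.14 and Itga6 values from -0.014 to 0.20. Normexp also ended the calls of Cdh2, Cdh3, Cdh22, Cdh23, Itga1, Itgad, Itgav, Itgb1, Itgb7, Pcdha4, Pcdhb14, Pcdhb15 and Pcdhb17, and without those spots it ended that of Cdh5. Scalings ended those of Cdh2, Cdh22, Itgad, Itgav, Pcdhb14 and Pcdhb17. The causes were not tested. Same-numbered arrays had correlations of their deviations of 0.013, 0.030, -0.032 and 0.21, so the numbers were not taken to pair them; a fit with the replicate number as a block gave 17 genes higher and 16 lower (22 and 18 probes). Signal over background limits Cdh5, Cdh23, Itga9, Itgb6, Itgb7 and Pcdhga9 to bounds.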
